A study of Mus musculus with 9 samples.

Results

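The genes described here are the 83 protein-coding genes of the mouse cytosolic ribosome that were selected by symbol, 32 for the small (40S) subunit and 51 for the large (60S) subunit. They were taken from the 35896 genes of the transcript tables by the symbols Rps, Rpl, Rplp and Rpsa, so ribosomal proteins with symbols formed differently, such as Fau and Rack1, fall outside. Poly-A RNA of E14 mouse embryonic stem cells, an established line, was sequenced in 9 libraries that form 3 groups of 3 paired replicates. Control cells with LIF2i stayed in medium with the cytokine LIF, the MEK inhibitor PD0325901 at 1 µM and the GSK3β inhibitor CHIR99021 at 1 µM. Control cells without LIF2i went without LIF and both inhibitors for 72 h. A parallel culture was deprived for 72 h with 80 µM CK666, an inhibitor of the Arp2/3 complex that nucleates branched actin, and is called the CK666 group. CK666 was dissolved in DMSO, and since DMSO is not mentioned for the controls, drug and solvent cannot be told apart. All groups share the cell line, serum and gelatin-coated dishes.

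Ribosomal proteins are made in nearly equal amounts, since each ribosome holds 1 copy of almost every one of them. Their mRNAs are short and abundant, and most begin with a 5′ terminal oligopyrimidine (TOP) tract through which mTOR and the RNA-binding protein Larp1 adjust translation. Mammalian genomes carry many retrotransposed copies of these mRNAs, most of them annotated as processed pseudogenes. A few members are paralogs of a core ribosomal protein with a narrower expression, such as Rpl10l and Rpl39l, known from the male germ line, and Rpl3l, known from striated muscle.

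The libraries held 16894327 to 22550952 estimated counts. Markers of embryonic stem cells (Pou5f1, Sox2, Nanog, Zfp42, Esrrb) passed the expression filter in 5 of 5 cases. They summed to 3826 to 4462 CPM (counts after depth scaling) with LIF2i and to 1403 to 1863 CPM without it. Pou5f1 made up most of the sum without LIF2i, at 1013 to 1262 CPM. Among controls it rose on withdrawal in replicate 1 (767 to 1064 CPM) and fell in the other pairs. Esrrb and Zfp42 fell furthest, from means of 879 and 675 CPM with LIF2i to 29.9 and 37.2 CPM in withdrawn controls. The 4 formative-state markers summed to 81.8 to 109 CPM with LIF2i, to 952 to 2519 CPM after withdrawal and to 544 to 1780 CPM with CK666. In the withdrawn groups the sum was highest in replicate 1, mainly through Dnmt3b, at 2259, 1018 and 716 CPM in withdrawn controls. In these controls Fgf5 (43.4, 60.7 and 38.2 CPM), Pou3f1 and Otx2 were highest in replicate 2. With CK666 Fgf5 and Pou3f1 were highest in replicate 1, and Otx2 was lowest there (65.4, 67.7 and 79.5 CPM). Fibroblast, primitive endoderm and trophoblast lists each summed to at most 30.3 CPM in any library. The fibroblast list differed between groups, at 5.4 to 9.4 CPM with LIF2i, 27.7 to 30.3 CPM after withdrawal and 15.7 to 24.4 CPM with CK666. The replicate 1 libraries stood apart from the others in the ribosomal protein genes, as described below, so each result is also given by replicate number. All values refer to bulk RNA, in which fewer cells of a type and less RNA per cell cannot be told apart.

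Several members cannot be read on their own, because the transcript set holds sequences nearly identical to them. A search took transcripts of other genes that matched a member transcript with at least 90% identity over at least 80% of their own length. It found 1120 copies for 80 of the 83 members, 1107 of the copies being of a pseudogene type. A copy may thus cover only part of the member. Rpl39l and Rpl3l were among the members with no copy. To show how little separates a member from its copy, 30 coding bases of Rpl30, a large subunit protein, and of Rps13, a small subunit protein, are printed with those of their main copies, and capitals mark the base that differs. The sequences are from the GENCODE M21 transcripts, and positions count from 1 at the first base of the start codon.
Rpl30: gtgctgggctacaaGcagactctgaagatg
Gm12191: gtgctgggctacaaAcagactctgaagatg
Rps13: cgggtgctcccaccTaattggaaatatgag
Rps13-ps1: cgggtgctcccaccCaattggaaatatgag
The Rpl30 difference, G96A, was the 1 difference in 348 coding bases, and T411C was 1 of 2 in the 456 coding bases of Rps13. Over their whole coding sequences Rpl5 and Gm15500 (894 bases), Rpl12 and Gm10275 (498 bases) and Rpl27a and Gm7536 (444 bases) had 0 differences. A read inside such a stretch fits both genes, and the estimated counts divide it between them.

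Read at face value, the annotated members spanned 2.57 to 8247 TPM, a library-scaled transcript abundance, as a mean over the 9 libraries, with a median of 2570 TPM. TPM is scaled per transcript length so that levels can be compared between genes. The means include replicate 1, where short transcripts were lower, so such comparisons are approximate. Rpl13a (8247 TPM) and Rps18 (6630 TPM) were the highest, and Rpl3l (2.57 TPM), Rpl39l (15.3 TPM) and Rpl29 (20.8 TPM) the lowest. The order was not the same in every library. In the replicate 1 library with LIF2i Rpl32 (3698 TPM) was above Rpl13a (3071 TPM) and Rps18 (2614 TPM), and Rpl29 (10.7 TPM) was below Rpl39l. Members that every ribosome contains were among the low ones. Rpl5, which binds 5S rRNA together with Rpl11, had 75.3 TPM, and its copy Gm15500 had 3098 TPM. Rplp0, the base of the P stalk that recruits translation factors, had 83.5 TPM. Rps13 had 50.8 TPM beside 2245 TPM for Rps13-ps1, Rps3a1 had 69.0 TPM beside 2493 TPM for Rps3a2, and Rps7 had 179 TPM beside 2938 TPM for Gm6472. Copies held more of the summed TPM than the member itself for 17 members, and 98.9% of it for Rpl29.

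With the copies added to each member, 3 families instead of 9 members lay below 100 TPM, and these were the families of the paralogs Rpl3l, Rpl39l and Rpl10l. The SD of log2 TPM over the 83 fell from 2.28 to 1.8. The copies as a whole took 18.7 to 20.9% of the TPM of members and copies in each of the 9 libraries, a nearly constant share. Which loci are transcribed was not tested.

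The division between a member and its copies was not the same in every library. Rps12-ps3, annotated as protein coding and 100% identical to Rps12 over the alignment, was listed at 0 in all 3 replicate 1 libraries and at 3870 to 5717 TPM in the 6 others. Gm12918, a copy of Rpl13, was also listed at 0 in the 3 replicate 1 libraries and at 773 to 1567 TPM elsewhere. A listed 0 can be a failed estimate where reads fit an identical sequence, so these are no statement on the locus.

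The largest difference among the members was between replicate 1 and the other replicate numbers, across all groups. The members' share of all TPM in replicate order was 10.4, 25.8 and 23.9% in control cells with LIF2i. It was 14.4, 24.4 and 23.5% in control cells without LIF2i and 16.2, 26.9 and 25.0% with CK666. The replicate 1 library was the lowest of its group in each case, and no replicate 1 library reached the lowest of the 6 others. With copies added the shares rose to 13.1 to 19.9% in replicate 1 and 29.5 to 33.7% elsewhere, with the same separation. Small subunit members took 0.72 to 0.75 of the TPM of large subunit members in replicate 1 and 0.83 to 0.85 in the others.

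**Figure D1:**
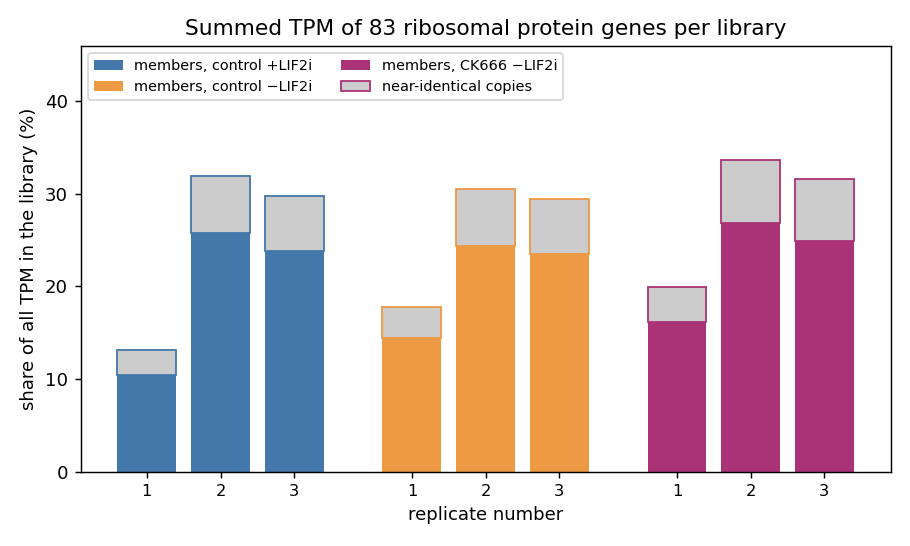
Share of all TPM (y axis, %) in the 83 ribosomal protein genes (coloured) and in their near-identical copies (grey), 1 bar per library, by group and replicate number. Replicate 1 is the lowest bar in each group, at 10.4, 14.4 and 16.2% for the members.

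Gene by gene, 66 of the 83 members were lower and 1 was higher in replicate 1 than in the mean of replicates 2 and 3 (edgeR quasi-likelihood test with group and replicate in the model, Benjamini-Hochberg adjusted p under 0.05, termed called). That is 80.7% of the members, beside 36.7% called among the 14648 genes tested, 18.7% lower and 17.9% higher. All 83 members passed the expression filter. The median log2 fold change was -1.21 over the members and -0.03 over all genes tested, and 64 members had their 3 replicate 1 libraries below the 6 others in CPM, beside 12.1% of all genes.

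Small subunit proteins held the largest differences. Rps21 was listed at 849, 1194 and 1379 TPM in the replicate 1 libraries (with LIF2i, without it, CK666) and at 5107 to 8058 TPM in the others, a log2 fold change of -2.93 (SE 0.18, adjusted p 3.3e-05 by edgeR). Rps29 had a log2 fold change of -2.55 (SE 0.24), Rps28 of -2.38 (SE 0.30), Rps27 of -2.26 (SE 0.15) and the large subunit protein Rpl12, a part of the stalk base, of -2.24 (SE 0.24). For each of these 5 genes the replicate 1 libraries did not overlap the others. The one member called higher was Rpl10l, with a log2 fold change of 0.67 (SE 0.17, adjusted p 0.015 by edgeR). Without replicate 3 its value was -0.016 and not called.

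By role, 3 of 3 P stalk proteins were lower (median log2 fold change -1.56), as were 14 of 14 proteins of the 40S head (-1.47), 7 of 8 at the rim of the exit tunnel (-1.43) and 7 of 9 genes mutated in Diamond-Blackfan anaemia (-1.02), beside 66 of all 83 members and 18.7% of all genes. No difference between roles was tested. Of the 5S partners, Rpl11 was called lower (-0.87) and Rpl5 was not (-0.10). Rpl5, Rps7, Rps13 and Rps3a1 are members whose TPM lay mostly in copies. With copies counted in, Rps7 went from 0.26 to -1.31, Rps13 from 0.54 to -0.86, Rps3a1 from 0.02 to -0.65 and Rpl5 from -0.10 to -0.79, and each was then called lower. Rps12 went from -0.41 to -1.17. In all, 76 members were called lower and 1 higher with copies added, beside 36.6% of all genes called in that fit, an alternative chosen after the data were seen.

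Short transcripts were, by median, lower in replicate 1 across the transcriptome. Whether length is a cause of the members' difference was not tested. The median annotated length was 756 bases for the members and 2789 bases for the genes tested. Among the members the Spearman correlation of length with the replicate 1 difference was 0.53 (n = 83), and among the other genes it was 0.40 (n = 14565). These are across genes in the same 9 libraries, and genes are not independent replicates. The 9 members under 500 bases had a median of -2.16 against -1.25 for 144 other genes of that length. From 600 to 800 bases the medians were -1.12 for 22 members and -1.02 for 333 other genes, and from 800 to 1000 bases they were -0.98 and -0.84. GC content, with a median of 51.1% in members and 50.8% in tested genes, had a correlation of -0.02 with the difference among members.

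**Figure D2:**
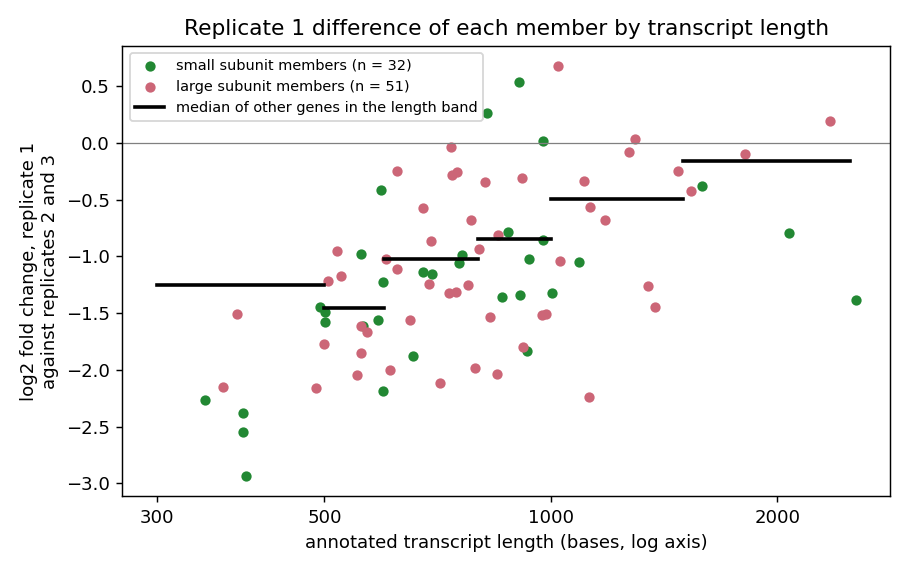
Log2 fold change of each member between replicate 1 and replicates 2 and 3 (y axis) against annotated transcript length in bases (x axis, log scale), with black bars for the median of other genes in length bands. The 9 members under 500 bases have a median of -2.16 and the other genes of that length one of -1.25.

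After a correction that removed the median deviation of each of 20 length bins from every library, the members' median was -0.24, with 38 called lower and 14 higher, beside 30.2% of all genes called. Library preparation, sequencing run and RNA quality of replicate 1 were not tested. The replicate 1 libraries also listed fewer genes above 0, 15690 to 17605 against 18166 to 18749.

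Other genes of the pathway, in lists written with the members, did not share one direction. Each of the 4 ribosomal proteins outside the symbol rule was called lower, Fau by the most (log2 fold change -1.29, SE 0.17). Of 78 mitochondrial ribosomal proteins, 41 were lower and 7 higher (median -0.45). Of 35 ribosome biogenesis factors 19 were higher and 4 lower (median 0.39), and of 14 other translation genes with a known TOP tract 2 were higher and 1 lower (median 0.00). The share called in either direction was 61.5% of the mitochondrial list, 65.7% of the biogenesis list and 21.4% of the TOP list, beside 36.7% of all genes. These lists also differ in transcript length.

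RefSeq start-site windows (GRCm38.p6, 250 bases before to 50 bases after the annotated start) were matched for 63 of 83 members. The pyrimidine motif CTTTCC stood on either strand in 52.4% of these and in 29.3% of all 27025 genes with a window. On the gene strand it stood in 39.7% of members and 16.0% of all, and on the opposite strand in 19.0% and 16.1%. The ETS-type motif CGGAAGT occurred on either strand in 33.3% against 7.2%, on the gene strand in 20.6% against 4.0% and on the opposite strand in 17.5% against 3.7%. Neither motif contains the other on either strand, and a match is not a binding site. Near the start, from 30 bases before to 35 after it, 17 members had CTTTCC on the gene strand, and their replicate 1 log2 fold changes ran from -2.26 to -0.08. Stretches of members across that range are printed, Rps27 (-2.26), Rpl38 (-2.15), Rpl35 (-1.80) and Rpl15 (-0.25), with CTTTCC in capitals and read 5′ to 3′ on the gene's strand. A link between the motif and the difference was not tested.
Rps27: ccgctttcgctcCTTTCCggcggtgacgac
Rpl38: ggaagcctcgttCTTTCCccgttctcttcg
Rpl35: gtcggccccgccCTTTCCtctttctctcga
Rpl15: aaagccttcttcCTTTCCtctggcggcagc
They lie at chr3:90213630-90213659 (minus strand), chr11:114668568-114668597 (plus strand), chr2:39005119-39005148 (minus strand) and chr14:18270965-18270994 (minus strand), with the motif beginning within 5 bases of the annotated start. Rpl39l, one of the paralogs, also had the motif near its start.

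Withdrawal of LIF2i, which the study used to start spontaneous differentiation, left the core ribosomal protein genes without a call. Among the 83 members 3 were lower and 0 higher, or 3.61%, beside 40.7% of all genes tested (21.1% higher and 19.7% lower), and each of the 3 was a paralog. None of the 77 members other than the paralogs was called. Of these 77, 4 had an unadjusted p under 0.05 by edgeR, none of them lower, beside 7139 of all 14648 genes tested. The members' median log2 fold change was 0.04, and 0.01 over all genes. DESeq2 with the same model called 3 lower and 2 higher, the latter Rpl10 (0.68) and Rps13 (0.66), beside 43.1% of all genes called by DESeq2. Most of the TPM of both lay in near-identical copies, and with copies added their edgeR values were 0.29 and 0.20 (adjusted p 0.22 and 0.49).

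Rpl10l, a retrogene of the 60S protein Rpl10 on chr12:66283379-66284401, fell the most. It was listed at 160, 95.4 and 51.5 TPM with LIF2i, in replicate order, and at 22.9, 23.7 and 9.44 TPM after withdrawal. With CK666 it had 36.9, 30.2 and 8.43 TPM. The self-renewal libraries did not overlap those of either withdrawn group, and the log2 fold change on withdrawal was -2.48 (SE 0.22, adjusted p 3.7e-05 by edgeR, lower in 3 of 3 pairs). Its coding sequence was 84.8% identical to that of Rpl10 over 645 bases, below the 90% taken for near-identical copies. Rpl10 itself had 541, 788 and 731 TPM with LIF2i and 1547, 1310 and 981 TPM after withdrawal, and its log2 fold change of 0.66 (SE 0.26, adjusted p 0.073 by edgeR) did not pass. Copies held 39.4 to 72.5% of the Rpl10 family's TPM by library, mainly the 100% identical Rpl10-ps3, and with copies added the value was 0.29 (adjusted p 0.22 by edgeR). The Rpl10l call held in every one of 23 alternative fits.

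Rpl3l, the muscle-type counterpart of Rpl3, and Rpl39l, the counterpart of the exit tunnel protein Rpl39, were also lower, at low levels. Rpl3l had 4.65, 5.63 and 3.33 TPM with LIF2i and 2.96, 1.43 and 1.36 TPM after withdrawal, on 20 to 97 counts per library. The groups did not overlap and the log2 fold change was -1.66 (SE 0.55, adjusted p 0.037 by edgeR), a call lost in 9 of 23 alternatives. Rpl39l had 21, 35 and 17.9 TPM with LIF2i and 7.76, 25.8 and 7.56 TPM after withdrawal. These groups overlapped in TPM, while each pair fell, and the log2 fold change was -1.10 (SE 0.26, adjusted p 0.0078 by edgeR).

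The other 3 paralogs were not called on withdrawal over the 9 libraries. Rpl22l1, the counterpart of Rpl22, had a log2 fold change of 0.20 (SE 0.17) and Rps27l, the counterpart of Rps27 known as a p53 target, one of 0.23 (SE 0.19). Rpl7l1, a ribosome biogenesis protein related to Rpl7, had -0.19, and without the replicate 1 libraries it was called lower (-0.34). The partners Rpl3, Rpl7, Rpl22, Rpl39 and Rps27 were not called either, with values from -0.20 to 0.13.

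**Figure D3:**
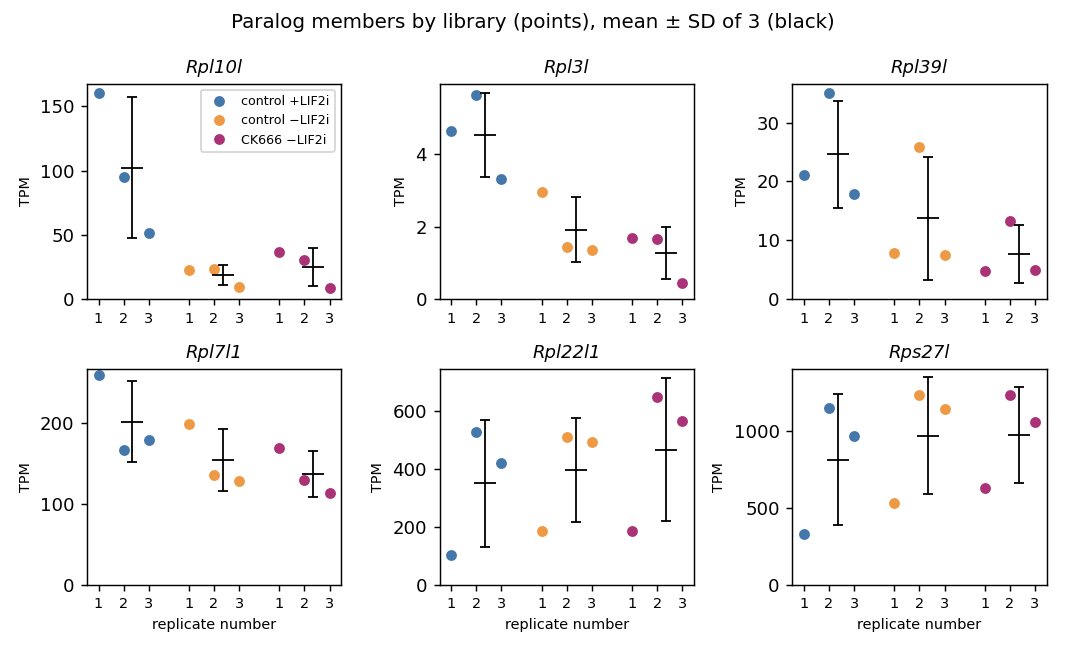
TPM (y axis) of the 6 paralog members in each library (points, by group and replicate number), with the mean and SD of 3 libraries in black. Rpl10l lies at 51.5 to 160 TPM with LIF2i and at 8.43 to 36.9 TPM in the 6 withdrawn libraries.

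The overall result for withdrawal hides pairs that moved in opposite directions. Within replicate 1, 79 of 83 members were higher after withdrawal, with a median log2 difference of 0.51. Within replicate 2, 9 of 83 were higher (median -0.25), and within replicate 3, 29 were (median -0.07). The summed TPM after withdrawal was 1.38 times that with LIF2i in replicate 1, 0.95 times in replicate 2 and 0.99 times in replicate 3. The library with LIF2i of replicate 1 had the lowest summed TPM of all 9. In 3 of 3 pairs 3 members were lower and 8 higher, beside 31.5% and 32.9% of all genes.

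A test of this difference, added after the data were seen, compared the withdrawal change of replicate 1 with that of replicates 2 and 3 in one edgeR model with 2 residual degrees of freedom. Each group has 1 replicate 1 library, which this model fits exactly, so the spread comes from replicates 2 and 3 alone and replicate 1 is assumed to vary like them. The pair medians above prompted the test, which adds no independent support to them. It called 27 members, each with the higher change in replicate 1, beside 4.0% of all genes. The median difference was 0.66 over the members and 0.07 over all genes, and 81 of 83 were above 0. Rpl28, a large subunit protein, was at 298, 1116 and 1286 TPM with LIF2i and at 755, 992 and 1262 TPM after withdrawal. Its withdrawal change was higher in replicate 1 by 1.42 on the log2 scale, and by 1.04 with copies added, which held 54.2 to 73.3% of its family's TPM by library. The Rpl28 family as a whole went from 1118 to 1647 TPM in replicate 1, from 3529 to 3692 TPM in replicate 2 and from 3762 to 3863 TPM in replicate 3. Rps19, the gene most often mutated in Diamond-Blackfan anaemia, differed by 1.37 (1.36 with copies added) and Rpl13 by 1.33 (1.24 with copies added). The same test on the CK666 change called 0 members (3 at an unadjusted p under 0.05 by edgeR), beside 0.0137% of all genes.

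**Figure D4:**
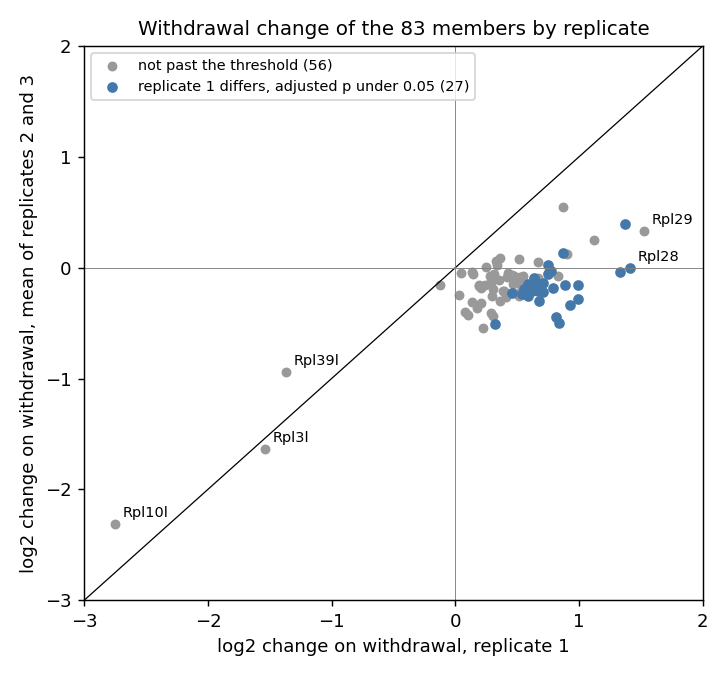
Log2 change on withdrawal of each member in replicate 1 (x axis) against the mean of replicates 2 and 3 (y axis), with the 27 members called for the difference in blue and the diagonal for equal change. Most members lie right of the vertical zero line and below the diagonal, and the 3 lowered paralogs lie near the diagonal.

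With the 3 replicate 1 libraries left out, withdrawal called 11 members lower and 1 higher, or 14.5% beside 44.8% of all genes, and the median was -0.12. Besides the 3 paralogs above, Rps20 (log2 fold change -0.48, SE 0.11), Rpl13 (-0.47), Rpl32 (-0.41), Rpl37a (-0.40), Rpl7l1 (-0.34), Rpl27a, Rpl3 and Rpl14 were lower, and Rpl10, most of whose family TPM lay in copies, was higher (0.42). With only the replicate 1 library with LIF2i left out, 16 were lower and 0 higher, beside 41.8% of all genes called in that fit. These genes were named after their values were seen. Copies held 89.3% of the Rpl27a family's TPM and 88.8% of the Rpl3 family's. With copies the Rpl27a family was at 5304 and 4399 TPM with LIF2i and at 5187 and 4413 TPM after withdrawal in replicates 2 and 3, so it did not fall in both pairs. Without the replicate block in the model 1 member, Rpl10l, was called for withdrawal, beside 24.0% of all genes, and Rpl10l and Rpl3l were called in CK666 cells against self-renewing cells, beside 20.2%.

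CK666 during withdrawal, the comparison that asks what Arp2/3 inhibition adds, called 0 of 83 members by edgeR, beside 2.05% of all genes (1.15% higher and 0.894% lower). By DESeq2 with the block the count was also 0, beside 8.44% of the genes with an adjusted p. At an unadjusted p under 0.05 edgeR gave 3 of 83 members, beside 2890 of all 14648 genes tested. The 3 were Rps20 (log2 fold change 0.48, adjusted p 0.24), Rps13 (-0.56, adjusted p 0.23) and Rpl39l (-0.71, adjusted p 0.18). The median log2 fold change was 0.17 over the members and 0.02 over all genes, and 68 of 83 lay above 0.

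The sum of the members was higher with CK666 in each pair by a small amount, 1.12, 1.10 and 1.06 times the withdrawn control in replicate order. The pair medians were 0.28, 0.19 and 0.01, with 71, 70 and 43 of 83 members higher, and 41 of 83 members were higher in 3 of 3 pairs, beside 25.3% of all genes. Rps20, a 40S head protein, had 542, 1512 and 1608 TPM in withdrawn controls and 796, 2416 and 1875 TPM with CK666, higher in each pair but not called. Without the replicate 1 libraries Rps20 was called higher (0.38) and Rps13 lower (-0.82), beside 12.3% of all genes. Rps13 had 94.7 to 99.1% of its family's TPM in copies, and with copies added in the fit over 9 libraries its log2 fold change went from -0.56 to 0.17.

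By role, the CK666 medians were 0.36 for the P stalk, 0.25 for the 40S head (14 of 14 above 0), 0.21 for the exit tunnel rim (8 of 8 above 0), -0.07 for the 5S partners and 0.14 for the Diamond-Blackfan genes, with 0 called in each list. Ribosome biogenesis factors had 32 of 35 values below 0 with a median of -0.16 and 0 called. With CK666, 1 of 8 polymerase I genes and 2 of 14 regulators and chaperones were called, each lower, beside 2.05% of all genes. Without the replicate block 0 of 14648 genes were called for CK666, so these 3 calls were then lost. Polr1b fell by 0.75 on the log2 scale (SE 0.14, adjusted p 0.038 by edgeR) and Grwd1, a chaperone of Rpl3, fell by 0.57 (adjusted p 0.040). Mycn, a transcription factor that raises ribosomal genes in other settings, was at 57.7, 90.7 and 87.0 CPM in withdrawn controls and at 32.7, 18.5 and 25.6 CPM with CK666, and fell by 1.58 (SE 0.27, adjusted p 0.031). On withdrawal, 6 of 35 biogenesis factors rose and 1 fell, or 20% beside 40.7% of all genes, and Nhp2, an H/ACA particle protein, rose the most (0.84, SE 0.11). Of 14 regulators and chaperones 4 rose and 1 fell, or 35.7%. Myc, a transcription factor related to Mycn, rose by 4.15 (SE 0.36, adjusted p 3.7e-05 by edgeR), from 4.08, 0.78 and 2.19 CPM with LIF2i to 52.3, 13.8 and 49.2 CPM, and Larp1 rose by 0.79 (SE 0.14, adjusted p 0.0019 by edgeR). With CK666 Myc was at 41.3, 5.61 and 10.2 CPM, lower in each pair but not called (log2 fold change -1.28, SE 0.31, adjusted p 0.064 by edgeR).

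CK666 cells against self-renewing cells, a comparison that shares its libraries with both others, called 4 members lower and 0 higher, or 4.82%, beside 36.9% of all genes (19.8% higher and 17.1% lower). These were Rpl3l (-2.22, SE 0.56), Rpl10l (-2.11, SE 0.21), Rpl39l (-1.81, SE 0.26) and Rpl7l1 (-0.50, SE 0.14, adjusted p 0.021 by edgeR). Rpl3l was at 1.69, 1.67 and 0.43 TPM with CK666, the last value on 3 counts, which is the detection floor. Rpl7l1 had 259, 167 and 179 TPM with LIF2i and 169, 129 and 113 TPM with CK666, and the groups overlapped slightly. Its call was lost in 7 of 23 alternatives. DESeq2 called 5 members higher and 4 lower, beside 40.2% of all genes, and the length bin correction gave 6 higher and 5 lower, beside 38.9%. Rpl41, Rps2, Rpl23a and Rpl28 were higher in both, with log2 fold changes of 0.42, 0.43, 0.55 and 0.66 by DESeq2. The median over the members was 0.21. Without the replicate 1 libraries it was -0.03, with 10 members lower and 0 higher, beside 41.6% of all genes.

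Within genes, the mix of annotated transcripts was examined in a transcript fit added after the data were seen. Protein-coding transcripts held 93.6 to 95.9% of the members' TPM in the 9 libraries, retained-intron models 0.98 to 2.39% and nonsense-mediated decay models 2.02 to 2.77%. Of 375 member transcripts tested, withdrawal called 4 higher and 2 lower, beside 6.31% of all transcripts, and CK666 called 0, beside 0%. CK666 cells against self-renewing cells had 4 higher and 2 lower, beside 4.90% of all transcripts. At an unadjusted p under 0.05 the CK666 test gave 13 of the 375 member transcripts, beside 2974 of all 40170 transcripts tested. Of the 6 transcripts called on withdrawal, 3 belonged to Rps24, a 40S protein mutated in Diamond-Blackfan anaemia, whose gene total was not called (log2 fold change 0.06).

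Rps24 (chr14:24487125-24496959, plus strand) makes proteins that differ at their very end, because small exons after exon 4 are used or skipped. The lines below give 12 bases of the end of exon 4 (chr14:24493383-24493493) and up to 18 bases of what follows in each annotated transcript, from GENCODE M21, with the stop codon in capitals.
Rps24-201: gctggcaaaaagTGA
Rps24-202: gctggcaaaaagTGAgtggagattggatac
Rps24-205: gctggcaaaaagaaaTGAaatacctagcag
Rps24-210: gctggcaaaaagccaaaggagTAGatctgc
Rps24-201 and Rps24-202 have the same coding sequence, and differ in that the Rps24-201 model begins 37 bases further upstream and ends at the stop codon, while Rps24-202 goes on for 88 bases. Rps24-205 includes an 18-base exon and adds 1 codon before its stop. Rps24-210 skips both small exons and adds 3 codons.

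Rps24-202 carried 48.9, 80.7 and 78.9% of the gene's TPM with LIF2i and 9.6, 36.2 and 27.7% after withdrawal, and with CK666 it carried 23.6, 48.6 and 35.5%. Its log2 fold change on withdrawal was -1.65 (SE 0.28, adjusted p 0.023 by edgeR). Rps24-201 went the other way, from 41.0, 12.8 and 13.8% to 81.6, 46.7 and 54.7%, with 66.5, 32.6 and 47.2% with CK666, a log2 fold change of 1.64 (SE 0.16, adjusted p 0.0051). In each replicate number the share of Rps24-202 was lowest in the withdrawn control, intermediate with CK666 and highest with LIF2i, but no CK666 change of these transcripts was called. Rps24-210 rose by 1.12 on withdrawal (SE 0.10, adjusted p 0.0035), from 88.8, 163 and 183 TPM to 184, 346 and 403 TPM. Rps24-205, with 1.4 to 7.6% of the gene's TPM, was called in CK666 cells against self-renewing cells (1.34, SE 0.27, adjusted p 0.047 by edgeR) and, without replicate 1, also on withdrawal (adjusted p 0.034). Without the block only Rps24-201 among the 6 transcripts called on withdrawal stayed past the threshold (adjusted p 0.0059). The withdrawal changes of Rps24-201, Rps24-202 and Rps24-210 kept their directions without replicate 2 or replicate 3, but none was then called by edgeR (adjusted p 0.065, 0.23 and 0.092 without replicate 2, and 0.14, 0.20 and 0.13 without replicate 3). The fit used estimates with no measure of the uncertainty of dividing reads between overlapping models, which it does not account for.

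**Figure D5:**
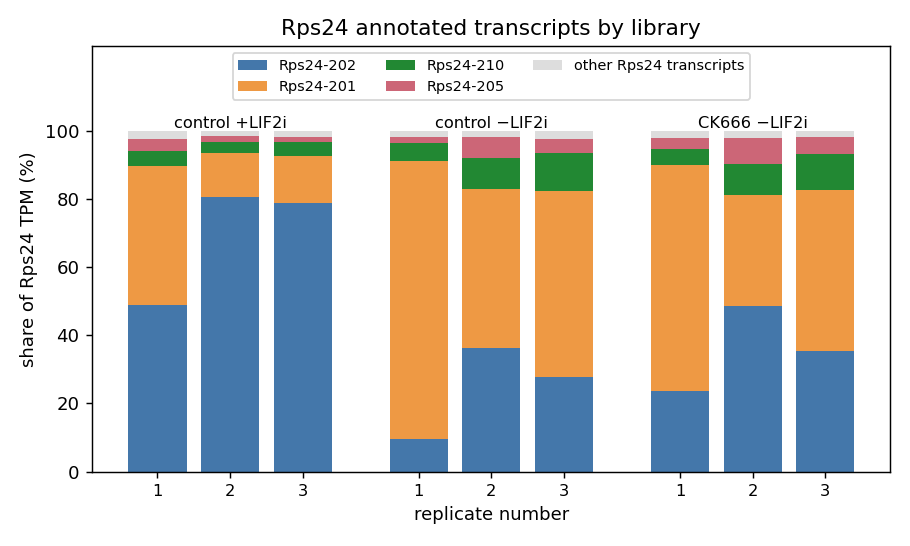
Share of Rps24 TPM (y axis, %) in each annotated transcript, 1 stacked bar per library by group and replicate number. Rps24-202 is the largest part of each library with LIF2i (48.9 to 80.7%) and falls to 9.6 to 36.2% after withdrawal.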

How the data were processed

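Per the submitters' processing notes, reads were handled with FastQC, cutadapt 1.8.1, kallisto and sleuth. The notes name the builds mm10 and GRCh38 with no role, and the transcript release is not given in the sources used here. The 9 deposited tables list, per their file headers, 119414 transcripts each with estimated counts of the authors, in which reads that fit several transcripts are divided between them, and TPM values, scaled by the authors within each library. Replicates are biological and paired per the labels. The deviations of same-numbered libraries from their group means correlated at 0.30 to 0.65 over all tested genes, against -0.53 to 0.29 for other numbers.

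Transcripts were joined to GENCODE M21 (GRCm38) genes for 97.7%. Estimated counts were summed per gene, rounded and tested with edgeR 4.0.16 in R 4.3.3 (TMM scaling, filterByExpr, robust quasi-likelihood test, group and replicate number as terms, all 9 libraries, 4 residual degrees of freedom, Benjamini-Hochberg adjustment over 14648 genes). The fit was tested on simulated data. CPM is TMM-scaled, and 3 counts, the detection floor, are 0.13 to 0.18 CPM, which covers counting error only. Near-identical copies were found with blastn. Named genes are the 5 called members with the largest change in each direction, the paralogs and their partners, the 3 highest and lowest levels and the role lists, and any others are marked in the text. Some genes that this rule covers are not reported here. The members and lists were chosen with earlier results of these data known. Of the members, 28 share over 5% of their exonic bases with another gene (Rpl35 66.2%, Rpl23a 62.3%), and counting by strand is not given in the sources used here. The snoRNA host transcripts were not analysed here. Alternatives were DESeq2 1.42.0, other scalings and filters, no block, length and GC corrections, added copies and leaving libraries out.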

Additional observations from a re-analysis of the deposited data

How the results depend on the processing

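Without the replicate block, withdrawal called 1 member, CK666 0 and CK666 against self-renewal 2, Rpl10l among them in both. The offset of replicate 1 cannot be fitted without it. DESeq2 with the block gave 5 calls for withdrawal and 9 for CK666 against self-renewal (5 higher, 4 lower). The length bin offset with the block gave 6 and 11, and with copies added as well the latter count was 14 (9 higher, 5 lower); both also moved the median replicate 1 difference, to -0.24 and -0.25. Leaving out replicates or single libraries gave 1 to 16 calls for withdrawal, 0 to 3 for CK666, 2 to 10 for CK666 against self-renewal and 59 to 68 for replicate 1. The medians ran from -0.15 to 0.21, from -0.015 to 0.25, from -0.03 to 0.36 and from -1.35 to -1.01. The ratios of summed TPM ran from 0.97 to 1.19, from 1.08 to 1.11 and from 1.05 to 1.30. The replicate 1 difference of Rpl10l was -0.016 without replicate 3 (adjusted p 0.96 by edgeR) and 1.37 without replicate 2. Rpl39l lost its withdrawal call in 3 of 23 alternatives, and Rpl7l1 lost its call against self-renewal in 7 of 23. The 5 members with the largest replicate 1 difference kept their calls in 21 of 21 alternatives. The causes were not tested. GC offset, copies and the later tests were chosen after the data were seen.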
